A study of Homo sapiens with 24 samples.

Results

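At 11p15.5, near the end of the short arm of human chromosome 11, the microRNA gene MIR210 lies inside MIR210HG, its long non-coding host gene. These results describe MIR210HG, MIR210 and 7 protein-coding neighbours (PHRF1, RASSF7, HRAS, LRRC56, DEAF1, TMEM80 and EPS8L2), found in the deposited count tables by gene name. They are 9 of 58735 genes, and 8 of them, all but MIR210, had enough reads to be tested, as had 19952 genes in all. The source was messenger RNA of HEK293T, a line derived from human embryonic kidney that carries the SV40 large T antigen, in 3 genotypes: MIR210HG-KO, MIR210-KO and unedited WT. Each genotype was kept at 1% oxygen (hypoxia) or at 21% oxygen (normoxia) for 24 h, with 4 libraries in each of the 6 groups, 24 in all. All groups share the line and the medium, DMEM with high glucose, heat-inactivated serum and antibiotics. The labels do not say how each knockout was made, whether the cells are clonal or pooled, or whether replicates were grown apart, so p-values measure the spread between these libraries, which may be technical. Hypoxia and normoxia libraries were deposited in separate tables, so oxygen level and table cannot be told apart.

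MicroRNA genes are transcribed as part of longer RNAs, which are cut in the nucleus to a hairpin and then to mature strands of which the seed, near the 5′ end, pairs with target messages. miR-210 is the microRNA most often found induced by low oxygen, through the hypoxia-inducible factors, which bind short motifs ending in CGTG. The genes around it are densely packed: HRAS encodes a RAS GTPase that relays growth factor signals, RASSF7 a RAS-association domain protein, and PHRF1 a ubiquitin ligase with PHD and RING fingers. LRRC56 encodes a leucine-rich repeat protein needed for ciliary dynein transport, DEAF1 a DNA-binding transcription factor, TMEM80 a transmembrane protein, and EPS8L2 an actin-binding relative of EPS8 found in the stereocilia of hair cells.

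The sequences at the centre of the design are those of MIR210, the gene named in the MIR210-KO label, and of the stretch around the start of MIR210HG, the gene named in the other. They come from RefSeq tables of GRCh38.p14. The mature strands share no seed, and capitals mark the seed, bases 2 to 8.
hsa-miR-210-3p: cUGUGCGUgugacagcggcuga
hsa-miR-210-5p: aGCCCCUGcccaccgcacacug
In the precursor, chr11:568089-568198 on the minus strand, capitals mark the 3p strand at positions 66 to 87.
MIR210 precursor: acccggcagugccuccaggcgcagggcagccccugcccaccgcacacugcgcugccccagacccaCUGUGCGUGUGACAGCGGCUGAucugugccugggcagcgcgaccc
The promoter window of MIR210HG, chr11:568408-568707 on the minus strand, holds 1 ACGTG, in capitals, at position -170 from the start. It also holds 1 GCGTG, not in capitals, at position -9. Both strands were searched, and the 2 motifs do not overlap here.
MIR210HG promoter: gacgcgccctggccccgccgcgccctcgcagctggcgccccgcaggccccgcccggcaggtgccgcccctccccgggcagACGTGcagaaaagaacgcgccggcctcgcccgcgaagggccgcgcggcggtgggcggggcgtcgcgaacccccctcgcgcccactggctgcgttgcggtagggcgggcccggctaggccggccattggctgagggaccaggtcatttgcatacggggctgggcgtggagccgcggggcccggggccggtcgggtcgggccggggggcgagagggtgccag
Of 35116 promoter windows of this length in the table, 21.4% held ACGTG, 36.5% held GCGTG and 48.4% held either. Among 10 windows of members, which include more than 1 start for DEAF1, TMEM80 and EPS8L2, ACGTG was in 2 (MIR210HG and LRRC56) and GCGTG in 4 (MIR210HG, LRRC56, HRAS and EPS8L2). RASSF7 and MIR210 had no window and were not searched. Windows were set at RefSeq starts, which can differ from the annotated starts given below. They differ most for LRRC56 (518988), HRAS (535576), EPS8L2 (706231 and 720640) and, of the DEAF1 windows, the one at 695222. The GCGTG of EPS8L2 was in the window at 706231. A match to these letters is a description and no evidence of binding.

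Positions were those of GENCODE release 29 on GRCh38, which matched all 58735 deposited gene positions. MIR210HG (ENSG00000247095) spans 565660 to 568457 on the minus strand of chromosome 11, and MIR210 (ENSG00000199038) lies in an intron of all 4 of its annotated transcripts, with no exonic base in common. RASSF7 (ENSG00000099849, 560404 to 564021, plus strand) ends 1639 bases from MIR210HG and PHRF1 (ENSG00000070047, 576486 to 612222, plus strand) begins 8029 bases beyond it. LRRC56 (ENSG00000161328, 537527 to 554916, plus strand) is 10744 bases away and HRAS (ENSG00000174775, 532242 to 537287, minus strand) 28373 bases away, their starts being 240 bases apart in this annotation. DEAF1 (ENSG00000177030, 644233 to 706715, minus strand) lies 75776 bases away, EPS8L2 (ENSG00000177106, 694438 to 727727, plus strand) 125981 and TMEM80 (ENSG00000177042, 695428 to 705028, plus strand) 126971. Those 3 genes overlap, and TMEM80 lies within the spans of both others. DEAF1, on the opposite strand to both, shares 105 exonic bases with TMEM80 and 121 with EPS8L2. TMEM80 and EPS8L2 are on the same strand. LRRC56 shares 62 exonic bases with LMNTD2, and EPS8L2 shares 141 with AP006621.4, also on opposite strands. Since the strand setting of the counting is not given in the sources used here, counts of these 4 genes are uncertain to that extent.

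Total counts ran from 25556776 to 37858947 per library, and no 2 libraries were identical. The line's markers (PAX2, NEFL, NEFM, INA, VIM, CDH2, KRT8 and KRT18) were detected in every library but differed between genotypes, 7 of 8 being lower in MIR210HG-KO than in MIR210-KO, with a median log2 fold change of -1.28 in hypoxia and -1.35 in normoxia. Over all genes 29% were lower in that comparison in hypoxia and 25.8% in normoxia. In MIR210HG-KO against WT, 7 markers were lower and none higher in hypoxia, beside 30.2% and 24.4% over all genes. In normoxia 6 were lower and 1 higher, beside 19.6% and 15.6%. In MIR210-KO against WT, 4 were higher and 1 lower in hypoxia, beside 28.2% and 27.7%. In normoxia 6 were higher and 2 lower, beside 22.6% and 21.6%. The part of such differences in the results below was not tested. Of markers of other cell types, PTPRC stayed at or below 0.141 CPM, PECAM1 at 0.210, COL1A2 at 0.539 and ALB at 3.67. Of 10 known oxygen-responsive genes listed as a check, 9 were tested. All 9 were higher in hypoxia in each genotype, beside 25.7% of all genes in MIR210HG-KO, 29.3% in MIR210-KO and 29.6% in WT. The median log2 fold change of the 9 was 1.65 in MIR210HG-KO, 1.49 in MIR210-KO and 1.72 in WT, and ANKRD37 (3.23 ± 0.13) and NDRG1 (2.33 ± 0.061) moved most in WT. Hypoxia WT replicates 1 and 3 stood apart from replicates 2 and 4, with long non-coding RNA at 1.59% and 1.52% of counts against 2.45% and 2.22%. In the normoxia MIR210HG-KO group, replicate 3 was the lowest of the 4 libraries for all 7 neighbours. Calls on the scale of all genes that change without these 3 libraries and hypoxia MIR210-KO replicate 1 are given both ways. In that last library long non-coding RNA was at 1.85% of counts, against 2.27%, 2.13% and 2.07% in replicates 2, 3 and 4. Normoxia MIR210HG-KO replicate 3 stood apart in the neighbours' own values, so results for them without it are not an independent check. Levels below are CPM, counts scaled to library size with TMM, ± after a level is the SD over 4 libraries, and ± after a log2 fold change is its standard error. A gene was called at an adjusted p under 0.05 over all 19952 genes. In bulk RNA, fewer cells with a transcript and less transcript per cell cannot be told apart.

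MIR210HG RNA was absent from every MIR210HG-KO library and was more abundant in hypoxia in the other genotypes. In hypoxia it was at 22.2, 18.9, 21.5 and 20.4 CPM in the 4 MIR210-KO libraries, against 19.4, 16.8, 21.0 and 19.2 in the WT libraries. In normoxia it was at 3.50, 2.10, 3.59 and 4.71 CPM in MIR210-KO, against 6.00, 6.34, 4.83 and 5.63 in WT. The MIR210-KO libraries thus overlapped those of WT in hypoxia, while in normoxia every MIR210-KO library was below every WT library. All 8 MIR210HG-KO libraries had 0 counts, which with a floor of 3 counts over a group put MIR210HG at least 828-fold lower than in WT in hypoxia and at least 196-fold lower in normoxia. Floors and counting intervals here cover counting error only. Hypoxia raised MIR210HG by a log2 fold change of 2.57 ± 0.14 in MIR210-KO (adjusted p = 5.12e-14) and of 1.74 ± 0.13 in WT (adjusted p = 1.31e-11). The difference between these responses, 0.83 ± 0.19, passed the test (adjusted p = 0.00208). On the scale of all genes it came with a lower normoxia level in MIR210-KO (-0.71 ± 0.15, adjusted p = 0.00044) and a hypoxia level that did not pass (0.12 ± 0.12, 95% interval -0.13 to 0.37, adjusted p = 0.406). Relative to chromosome 11, a scale described below, the hypoxia level was higher (0.60 ± 0.12, adjusted p = 5.40e-05). The normoxia level did not pass there (-0.25 ± 0.15, adjusted p = 0.152).

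**Figure D1:**
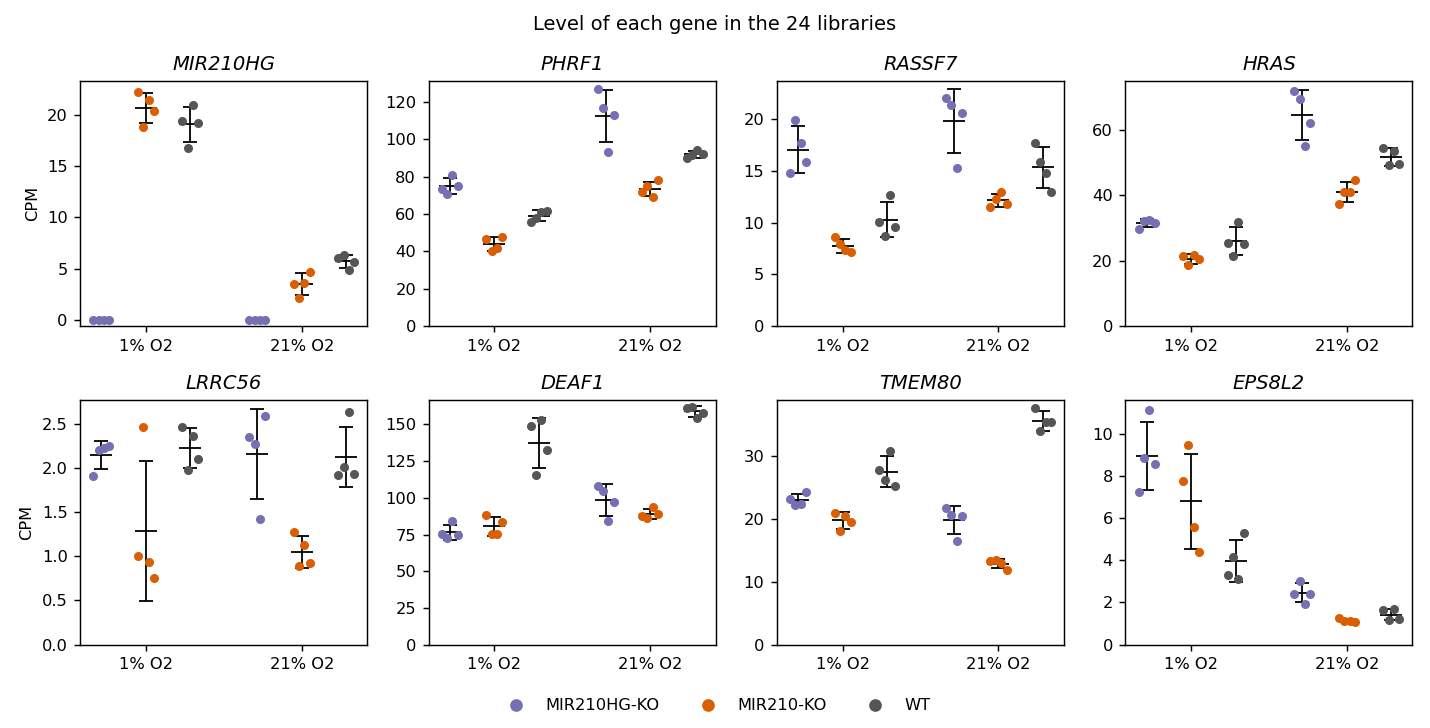
CPM of MIR210HG and its 7 neighbours on linear axes, at 1% and at 21% oxygen. Each point is a library (4 per group), the long bar the mean and the whiskers the SD; MIR210HG is at 0 in all 8 MIR210HG-KO libraries, and DEAF1 and TMEM80 in the knockouts lie below WT at both oxygen levels.

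The MIR210 precursor was barely sampled, since these libraries were made from messenger RNA and the mature microRNA is too short to enter them. Summed over the 4 libraries of a hypoxia group, it had 0 counts in MIR210HG-KO, 33 in MIR210-KO (95% exact Poisson interval 22.7 to 46.3) and 30 in WT (20.2 to 42.8). In normoxia the sums were 0 in MIR210HG-KO, 1 in MIR210-KO and 3 in WT. By library, the hypoxia values were 0.313, 0.156, 0.199 and 0.315 CPM in MIR210-KO, against 0.420, 0.200, 0.0548 and 0.162 in WT, and the groups overlapped. The MIR210-KO label is therefore not checked by this count: a small edit of the hairpin need not remove such reads, and reads of the unspliced host can fall there. For each 100 MIR210HG counts there were 1.18 precursor counts in hypoxia MIR210-KO and 1.07 in hypoxia WT. Two-sided exact permutation tests over libraries gave p = 0.0286, the smallest that 4 against 4 allow, for MIR210HG-KO against WT in hypoxia, and 0.743 for MIR210-KO against WT in hypoxia. Adjusted over 8 such comparisons, these were 0.0762 and 0.849, so that no difference in MIR210 passed. The 3 comparisons whose groups did not overlap (MIR210HG-KO against MIR210-KO and against WT in hypoxia, and hypoxia against normoxia in MIR210-KO) all reached that smallest p, so missing the threshold says nothing on whether those groups differ.

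The changes of the neighbours have to be read beside those of the whole chromosome. In MIR210-KO against WT, the median log2 fold change of the other 1035 tested genes of chromosome 11 was -0.48 in hypoxia and -0.50 in normoxia, the lowest of 23 chromosomes. The next lowest was chromosome 20, at -0.47 in hypoxia and -0.46 in normoxia. In MIR210HG-KO against WT it was -0.06 and -0.02, and in MIR210HG-KO against MIR210-KO 0.48 and 0.50, the highest of 23. Chromosome 11 held 3.51% ± 0.037 of all counts in hypoxia MIR210-KO libraries, against 4.86% ± 0.043 in hypoxia WT libraries. In normoxia these shares were 3.62% ± 0.0058 in MIR210-KO and 4.99% ± 0.025 in WT. Of the 1035 genes, 633 were called lower and 81 higher in hypoxia, and 654 lower and 56 higher in normoxia. The lower level ran along the chromosome, with normoxia medians of -0.46 on the short arm (350 genes) and -0.51 on the long arm (685 genes), and it included MIR210HG's own end. The part of this shift in the changes of single neighbours was not tested. Comparisons between genotypes are therefore given on the scale of all genes and again relative to chromosome 11, that is, with libraries scaled on those 1035 genes. On that scale genes of other chromosomes shift together by construction, so the shares called among the 1035 genes themselves are given too.

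**Figure D2:**
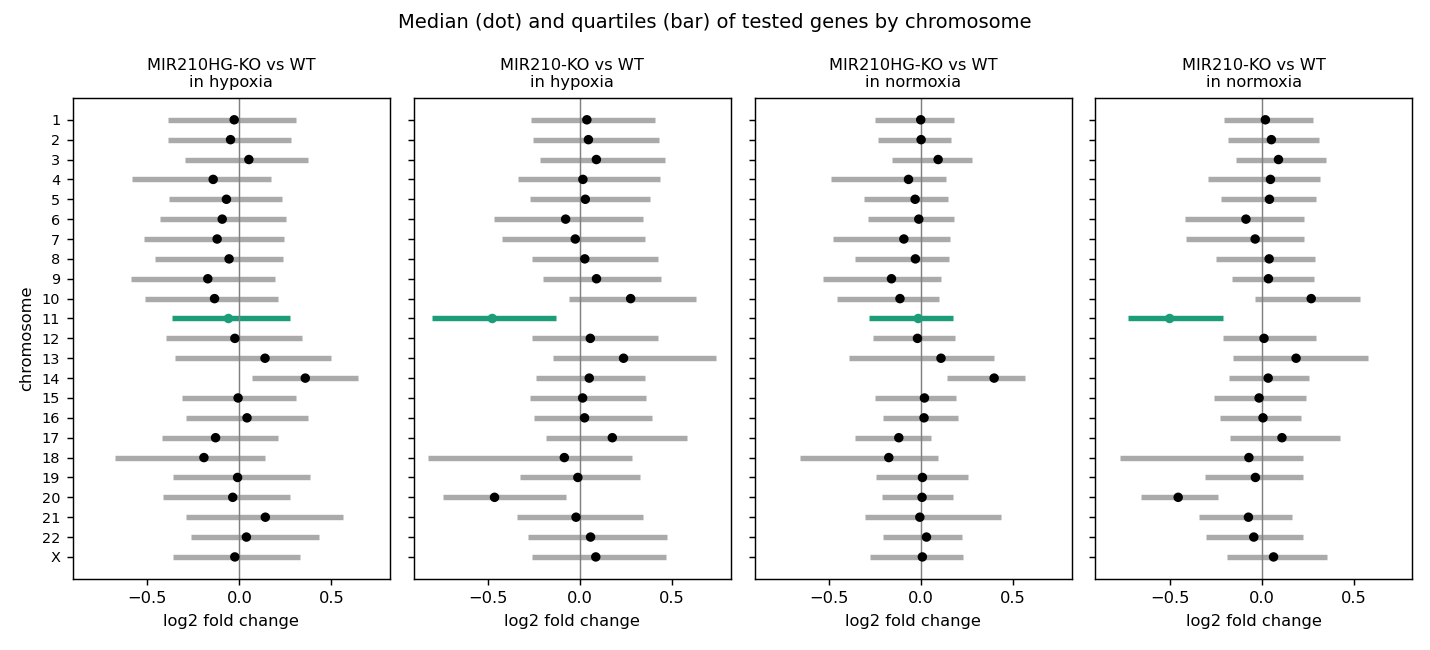
Median (dot) and quartiles (bar) of the log2 fold change of tested genes on each chromosome, on the scale of all genes, the members left out. Chromosome 11, in green, has the lowest median in both MIR210-KO panels (-0.48 in hypoxia and -0.50 in normoxia) and lies near 0 in both MIR210HG-KO panels.

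**Figure D3:**
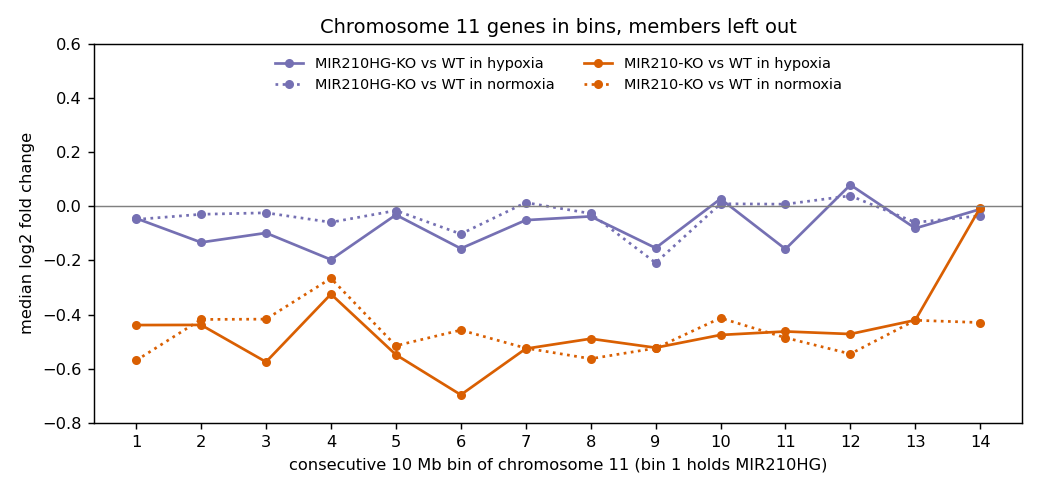
Median log2 fold change of tested genes in 14 consecutive bins of 10 Mb along chromosome 11, from the short-arm end (bin 1) on. The lines for MIR210-KO against WT lie below those for MIR210HG-KO against WT in every bin in normoxia; in hypoxia the last bin is near 0 in both.

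In MIR210-KO cells most neighbours were lower than in WT at both oxygen levels. In hypoxia 6 of 7 were called lower and EPS8L2 higher, beside 27.7% of all tested genes called lower and 28.2% called higher. In normoxia 6 of 7 were called lower and none higher, beside 21.6% lower and 22.6% higher over all genes. The median of the 7 was -0.43 in hypoxia and -0.34 in normoxia, close to the chromosome's own -0.48 and -0.50, and PHRF1, RASSF7 and HRAS each moved less than the chromosome did.

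PHRF1 was at 46.3, 40.0, 41.5 and 47.7 CPM in hypoxia MIR210-KO libraries, against 55.7, 57.9, 61.3 and 61.5 in WT. RASSF7 was at 8.63, 7.94, 7.31 and 7.17 CPM in hypoxia MIR210-KO, against 10.1, 8.74, 12.7 and 9.59 in WT. The groups did not overlap for either gene, though for RASSF7 only narrowly, and the changes were -0.43 ± 0.071 (adjusted p = 5.09e-06) for PHRF1 and -0.40 ± 0.12 (adjusted p = 0.00503) for RASSF7. HRAS was at 21.5, 18.5, 21.7 and 20.5 CPM in hypoxia MIR210-KO, against 25.2, 21.5, 31.7 and 25.2 in WT (-0.33 ± 0.090, adjusted p = 0.00199), with 1 WT library inside the MIR210-KO range. In normoxia the same 3 genes changed by -0.32 ± 0.070, -0.34 ± 0.12 and -0.33 ± 0.087 in the order PHRF1, RASSF7, HRAS (adjusted p = 0.000302, 0.019 and 0.00202). None of the 3 was called relative to chromosome 11 at either oxygen level, with values from 0.05 to 0.15, where 57.0% of the other genes of the chromosome were called in hypoxia and 43.5% in normoxia. This depended on the setting in normoxia. PHRF1 was called there with RLE size factors (0.15), DESeq2 (0.15), a baseline of short-arm genes (0.15) or only the groups compared (0.18), and HRAS also with only the groups compared (0.17). With a baseline of genes within 5 Mb PHRF1 (0.27), RASSF7 (0.26) and HRAS (0.26) were all called higher. RASSF7's normoxia call was lost without MIR210-KO replicate 1 (adjusted p = 0.0591) or 4 (0.052) and without WT replicate 1 (0.109) or 2 (0.0509). Relative to chromosome 11, PHRF1 passed in normoxia without MIR210-KO replicate 3 (0.21, adjusted p = 0.0144), and HRAS in hypoxia without WT replicate 3 (0.28, adjusted p = 0.00226), without MIR210-KO replicate 2 (0.23, adjusted p = 0.0264) or without the 4 libraries that stood apart (0.25, adjusted p = 0.00488).

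DEAF1 and TMEM80, which lies inside the span of DEAF1 on the opposite strand, fell further. DEAF1 was at 88.6, 75.4, 75.2 and 83.3 CPM in hypoxia MIR210-KO libraries, against 149, 116, 153 and 132 in WT. In normoxia it was at 87.3, 86.1, 93.7 and 88.9 CPM in MIR210-KO, against 161, 162, 154 and 158 in WT. The groups did not overlap at either oxygen level, and the changes were -0.77 ± 0.076 in hypoxia (adjusted p = 2.86e-10) and -0.84 ± 0.077 in normoxia (adjusted p = 9.76e-11). DEAF1 stayed lower relative to chromosome 11, by -0.29 ± 0.072 in hypoxia (adjusted p = 0.000684) and -0.38 ± 0.072 in normoxia (adjusted p = 2.82e-05).

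TMEM80 was at 20.9, 17.998, 20.5 and 19.5 CPM in hypoxia MIR210-KO libraries, against 27.8, 26.2, 30.8 and 25.2 in WT. In normoxia it was at 13.2, 13.5, 12.9 and 11.9 CPM in MIR210-KO, against 37.7, 34.0, 35.4 and 35.4 in WT. The groups were far apart in normoxia and closer, without overlap, in hypoxia. The change was -0.48 ± 0.075 in hypoxia (adjusted p = 2.36e-06) and -1.47 ± 0.080 in normoxia (0.361-fold, adjusted p = 4.23e-16), lower than in all but 4.51% of the 1043 tested genes of chromosome 11. Its value relative to chromosome 11 was 0.01 ± 0.072 in hypoxia (adjusted p = 0.947) and -1.01 ± 0.076 in normoxia (adjusted p = 3.60e-13).

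LRRC56 and EPS8L2 were the least abundant of the 7. LRRC56 was at 0.997, 2.46, 0.931 and 0.755 CPM in hypoxia MIR210-KO libraries, against 2.46, 1.98, 2.36 and 2.10 in WT (-0.76 ± 0.24, adjusted p = 0.00819). Replicate 2 of MIR210-KO alone was as high as WT: without it the change relative to chromosome 11 was -0.80 (adjusted p = 0.00102), against -0.27 with it (adjusted p = 0.307). Without the 4 libraries that stood apart the change on the scale of all genes was -0.52 and did not pass (adjusted p = 0.109). In normoxia LRRC56 was at 1.27, 0.889, 1.13 and 0.919 CPM in MIR210-KO, against 1.92, 2.01, 2.63 and 1.93 in WT, without overlap (-1.002 ± 0.27, adjusted p = 0.00252, and -0.54 relative to chromosome 11, adjusted p = 0.0732). EPS8L2 went the other way in hypoxia, at 7.78, 9.44, 5.55 and 4.40 CPM in MIR210-KO, against 3.30, 4.16, 3.13 and 5.31 in WT (0.78 ± 0.18, adjusted p = 0.000483, and 1.26 ± 0.18 relative to chromosome 11, adjusted p = 3.11e-07). Its lowest MIR210-KO library lay below its highest WT library. In normoxia EPS8L2 was at 1.24, 1.13, 1.13 and 1.08 CPM in MIR210-KO and at 1.62, 1.16, 1.66 and 1.22 CPM in WT, a difference of -0.31 with a 95% interval of -0.88 to 0.26 (adjusted p = 0.381).

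On the chromosome 11 scale, then, 2 of the 8 tested members were called lower in MIR210-KO in normoxia (TMEM80 and DEAF1) and none higher, beside 5.43% lower and 61.2% higher over all genes on that scale. Among the other genes of the chromosome 24.0% were lower and 19.5% higher, so that 2 of 8 lower is near the rate of the chromosome. In hypoxia, EPS8L2 and MIR210HG were called higher and DEAF1 lower, beside 7.9% lower and 64.8% higher over all genes, and 30.0% lower and 27.1% higher among the other genes of the chromosome. MIR210HG was at 0.60 ± 0.12 on that scale in hypoxia (adjusted p = 5.40e-05) and at -0.25 ± 0.15 in normoxia (adjusted p = 0.152). The normoxia value passed without MIR210-KO replicate 4 (-0.40, adjusted p = 0.0305).

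**Figure D4:**
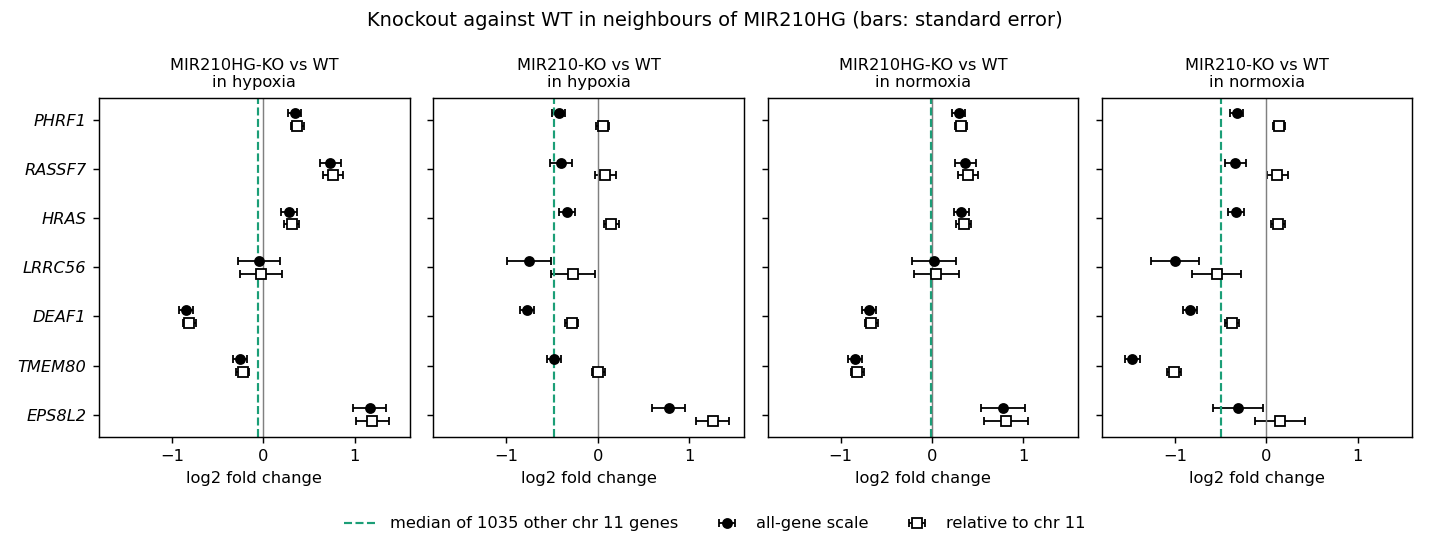
Log2 fold change of the 7 neighbours in each knockout against WT, with standard errors from 4 libraries a group. Filled circles are on the scale of all genes, open squares relative to chromosome 11, and the dashed line is the median of 1035 other chromosome 11 genes, at -0.48 and -0.50 in the MIR210-KO panels.

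In MIR210HG-KO cells, where chromosome 11 as a whole was near 0, the neighbours moved in both directions. PHRF1, RASSF7, HRAS and EPS8L2 were higher than in WT at both oxygen levels, and DEAF1 and TMEM80 lower at both. LRRC56 did not pass. The counts of 4 higher and 2 lower of 7 stood beside 24.4% higher and 30.2% lower over all genes in hypoxia, and beside 15.6% and 19.6% in normoxia. The median of the 7 was 0.28 in hypoxia and 0.29 in normoxia.

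RASSF7, the nearest coding gene, was at 14.8, 19.9, 17.7 and 15.8 CPM in hypoxia MIR210HG-KO libraries, all above the WT libraries (0.73 ± 0.11, adjusted p = 2.47e-06). In normoxia it was at 22.1, 21.4, 15.2 and 20.6 CPM in MIR210HG-KO, against 17.7, 15.9, 14.9 and 12.97 in WT (0.37 ± 0.11, adjusted p = 0.0119), and here replicate 3 lay within the WT range. Without WT replicate 4 that normoxia call was lost (0.30, adjusted p = 0.0569). PHRF1 was at 73.1, 70.9, 80.7 and 74.9 CPM in hypoxia MIR210HG-KO, again above every WT library (0.34 ± 0.070, adjusted p = 0.000113). In normoxia it was at 127, 117, 93.1 and 113 CPM in MIR210HG-KO, against 89.8, 91.7, 94.1 and 92.2 in WT (0.29 ± 0.070, adjusted p = 0.0013), with replicate 3 again in the WT range. HRAS changed by 0.28 ± 0.088 in hypoxia (adjusted p = 0.00841), a call lost without WT replicate 2 (0.19, adjusted p = 0.0561), and by 0.32 ± 0.085 in normoxia (adjusted p = 0.00339). Its groups overlapped in hypoxia, where the highest WT library (31.7 CPM) lay within the MIR210HG-KO range (29.6 to 32.4), and not in normoxia.

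EPS8L2 was at 7.21, 8.85, 11.1 and 8.54 CPM in hypoxia MIR210HG-KO libraries, all above the highest WT library (1.17 ± 0.18, adjusted p = 1.89e-06). In normoxia it was at 2.39, 3.03, 1.94 and 2.42 CPM in MIR210HG-KO, also without overlap with WT (0.78 ± 0.24, adjusted p = 0.0116). That put it 41st from the highest of 1043 genes of chromosome 11 in hypoxia and 32nd in normoxia.

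DEAF1 was at 75.2, 72.4, 84.3 and 74.4 CPM in hypoxia MIR210HG-KO libraries and at 108, 105, 84.0 and 97.3 CPM in normoxia. All 8 were below every WT library at the same oxygen level, with changes of -0.84 ± 0.076 in hypoxia (adjusted p = 5.67e-11) and -0.69 ± 0.076 in normoxia (adjusted p = 1.02e-08). TMEM80 was at 23.1, 22.3, 22.3 and 24.3 CPM in hypoxia MIR210HG-KO and at 21.7, 20.6, 16.5 and 20.5 CPM in normoxia, also below every WT library. Its changes were -0.26 ± 0.075 in hypoxia (adjusted p = 0.00435) and -0.85 ± 0.077 in normoxia (adjusted p = 1.63e-10). LRRC56 was at 1.91, 2.20, 2.23 and 2.24 CPM in hypoxia MIR210HG-KO, overlapping WT (-0.05, 95% interval -0.54 to 0.43), and its normoxia difference was 0.02 (95% interval -0.49 to 0.53). The same 4 neighbours were higher and the same 2 lower relative to chromosome 11 at both oxygen levels, beside 26.3% higher and 28.2% lower over all genes in hypoxia and 18% and 17.8% in normoxia. Among the other genes of the chromosome 25.3% were higher and 27.1% lower in hypoxia, and 16.6% and 15.46% in normoxia. Without the 4 libraries that stood apart, or with a short-arm baseline (-0.16, adjusted p = 0.077), TMEM80 no longer passed on that scale in hypoxia (-0.12, adjusted p = 0.137).

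On the scale of all genes DEAF1 and TMEM80 were thus below WT in both knockouts at both oxygen levels. Relative to chromosome 11 this held for DEAF1, but TMEM80 in hypoxia MIR210-KO was at 0.01 (adjusted p = 0.947). The comparisons share their WT libraries and are not independent of each other. Set against each other, the knockouts differed in most neighbours in the direction of the chromosome 11 median, though by different amounts. In hypoxia 5 of 7 neighbours were called higher in MIR210HG-KO than in MIR210-KO and none lower, beside 26% higher and 29% lower over all genes. In normoxia 6 were higher and none lower, beside 23.4% and 25.8%. Over chromosome 11 these shares were 60.5% higher and 9.95% lower in hypoxia, and 59.5% and 9.08% in normoxia. RASSF7 differed by 1.13 ± 0.12 in hypoxia (adjusted p = 9.05e-10) and 0.71 ± 0.12 in normoxia (adjusted p = 5.65e-06). DEAF1 did not pass in hypoxia (-0.07, 95% interval -0.23 to 0.09) or in normoxia (0.15, 95% interval -0.01 to 0.31), but in normoxia it passed without MIR210HG-KO replicate 3 (0.21, adjusted p = 0.0234), without the 4 libraries (0.22, adjusted p = 0.00044), with no filter (0.18, adjusted p = 0.022) and with plain totals (0.17, adjusted p = 0.0493). EPS8L2 missed the threshold in hypoxia (0.39 ± 0.17, adjusted p = 0.0583) and passed with DESeq2 (adjusted p = 0.046), RLE size factors (0.0379), no filter (0.0102), only the groups compared (0.0303) and without the 4 libraries that stood apart (0.011). It also passed without MIR210-KO replicate 1 (0.48, adjusted p = 0.0311) or 2 (0.59, adjusted p = 0.00521) and without MIR210HG-KO replicate 1 (0.50, adjusted p = 0.0227). LRRC56 (0.70 ± 0.24, adjusted p = 0.0149 in hypoxia) was lost without MIR210-KO replicate 3 (0.58, adjusted p = 0.0592) or 4 (0.54, adjusted p = 0.0639), and TMEM80 (0.22 ± 0.076, adjusted p = 0.0144 in hypoxia) without MIR210-KO replicate 2 (0.18, adjusted p = 0.0662).

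Relative to chromosome 11, PHRF1 (0.32 ± 0.069) and RASSF7 (0.68 ± 0.11) were higher in MIR210HG-KO than in MIR210-KO in hypoxia, and TMEM80 (-0.23 ± 0.073) and DEAF1 (-0.53 ± 0.073) lower, beside 6.29% higher and 63.2% lower over all genes on that scale. Among the other genes of the chromosome 27.9% were higher and 25.6% lower, near the share of the neighbours. TMEM80 lost its call with a short-arm baseline (-0.11, adjusted p = 0.202) and with genes within 5 Mb (-0.17, adjusted p = 0.0577), and HRAS gained one with both (0.28 and 0.22) and without the 4 libraries that stood apart (0.22, adjusted p = 0.00341). LRRC56 joined the higher genes without MIR210-KO replicate 2 (0.78, adjusted p = 0.00144). In normoxia, PHRF1, RASSF7, HRAS, TMEM80 and EPS8L2 were called higher, with values from 0.18 to 0.66, and DEAF1 lower (-0.29 ± 0.073, adjusted p = 0.000857), beside 5.58% and 59.1% over all genes and 26.8% and 20.7% among the other genes of the chromosome. Each of these 5 higher calls was lost when MIR210-KO replicate 2 was left out (adjusted p from 0.0518 to 0.114) and again when MIR210-KO replicate 3 was left out (0.0535 to 0.211). Some were also lost without MIR210-KO replicate 4 or MIR210HG-KO replicates 1 and 2, and DEAF1's call was kept in each case. LRRC56 did not pass relative to chromosome 11 (0.59, adjusted p = 0.0535) but passed without the 4 libraries (0.69, adjusted p = 0.0159).

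Of the 8 tested members, those called in low oxygen moved in different directions. In WT, MIR210HG and EPS8L2 were called higher in hypoxia and PHRF1, RASSF7, HRAS, TMEM80 and DEAF1 lower, beside 29.6% higher and 30.7% lower over all genes. In MIR210-KO 3 were higher and 3 lower, beside 29.3% and 29.5%, and in MIR210HG-KO, where MIR210HG itself could not be tested, 2 were higher and 3 lower, beside 25.7% and 28.3%. The chromosome's own median was between -0.04 and -0.03 in all 3 genotypes, and between 0.09 and 0.16 with plain library totals. Oxygen responses are given on the scale of all genes, and relative to chromosome 11 the same members were called in the same direction except for DEAF1 in WT.

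HRAS fell to 29.6, 32.2, 32.4 and 31.4 CPM in hypoxia MIR210HG-KO libraries, against 72.0, 69.3, 55.0 and 62.1 in normoxia MIR210HG-KO libraries. Its change was -1.04 ± 0.087 there, -0.998 ± 0.090 in MIR210-KO and -0.997 ± 0.087 in WT. PHRF1 fell in all 3 genotypes too, by -0.59 ± 0.070 in MIR210HG-KO, -0.74 ± 0.071 in MIR210-KO and -0.64 ± 0.070 in WT. RASSF7 changed by -0.22 ± 0.11 in MIR210HG-KO (adjusted p = 0.105), -0.64 ± 0.12 in MIR210-KO and -0.58 ± 0.12 in WT. The first of these passed without hypoxia replicate 2 (-0.30, adjusted p = 0.0387), without normoxia replicate 3 (-0.31, adjusted p = 0.0155) or without the 4 libraries that stood apart (-0.33, adjusted p = 0.00102). For none of HRAS, PHRF1 and RASSF7 did the difference between a knockout's response and that of WT pass: for RASSF7 it was 0.36 ± 0.16 in MIR210HG-KO (adjusted p = 0.104), which passed without hypoxia WT replicate 3 (0.49, adjusted p = 0.0222) or without the 4 libraries (0.42, adjusted p = 0.0179).

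EPS8L2 was higher in hypoxia in every genotype, by 1.87 ± 0.20 in MIR210HG-KO, 2.57 ± 0.22 in MIR210-KO and 1.48 ± 0.22 in WT, with no overlap between oxygen levels. The MIR210-KO response exceeded that of WT by 1.09 ± 0.33 (adjusted p = 0.0126), and by 0.78 without the 4 libraries that stood apart (adjusted p = 0.0589). TMEM80 went in opposite directions: it was higher in hypoxia in MIR210HG-KO (0.22 ± 0.077, adjusted p = 0.0192) and in MIR210-KO (0.62 ± 0.081, adjusted p = 8.86e-08), and lower in WT (-0.37 ± 0.074, adjusted p = 5.52e-05). Its response differed from that of WT by 0.59 ± 0.11 in MIR210HG-KO (adjusted p = 0.000136) and by 0.99 ± 0.11 in MIR210-KO (adjusted p = 3.33e-08). The MIR210HG-KO rise itself was lost without hypoxia replicate 4 (0.18, adjusted p = 0.0724), without normoxia replicate 3 (0.14, adjusted p = 0.108) or without the 4 libraries (0.13, adjusted p = 0.0798). The knockouts' responses differed from each other by -0.40 ± 0.11 (adjusted p = 0.0378), a call lost when any of 14 of the 16 libraries of these groups was left out, with values between -0.42 and -0.36. Relative to chromosome 11 it was also lost with a short-arm baseline (-0.28, adjusted p = 0.126), a baseline within 5 Mb (-0.23, adjusted p = 0.241) or only the groups compared (-0.33, adjusted p = 0.0718), and RASSF7 was called higher in each of the 3.

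DEAF1 fell in hypoxia by -0.36 ± 0.077 in MIR210HG-KO (adjusted p = 0.000162) and by -0.21 ± 0.075 in WT (adjusted p = 0.0175, but -0.11 relative to chromosome 11, adjusted p = 0.19), and did not pass in MIR210-KO (-0.14 ± 0.077, adjusted p = 0.112). The WT call was lost without hypoxia WT replicate 2 (-0.13, adjusted p = 0.111) or 4 (-0.19, adjusted p = 0.0557) and without normoxia WT replicate 1 (-0.19, adjusted p = 0.0547) or 2 (-0.19, adjusted p = 0.0575), and the MIR210-KO value passed without hypoxia MIR210-KO replicate 1 (-0.20, adjusted p = 0.0367) or the 4 libraries (-0.20, adjusted p = 0.00115). Without those 4 libraries the WT value relative to chromosome 11 passed (-0.26, adjusted p = 6.73e-05), as did the difference in response between the knockouts on the scale of all genes (-0.24, adjusted p = 0.0276). LRRC56 did not pass in any genotype, with values of -0.00, 0.31 and 0.07 in MIR210HG-KO, MIR210-KO and WT. Interactions were called in either direction in 22.5% of all genes for MIR210HG-KO, 26.5% for MIR210-KO and 3.54% between the knockouts, where the members had 1 of 7, 3 of 8 and 1 of 7.

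**Figure D5:**
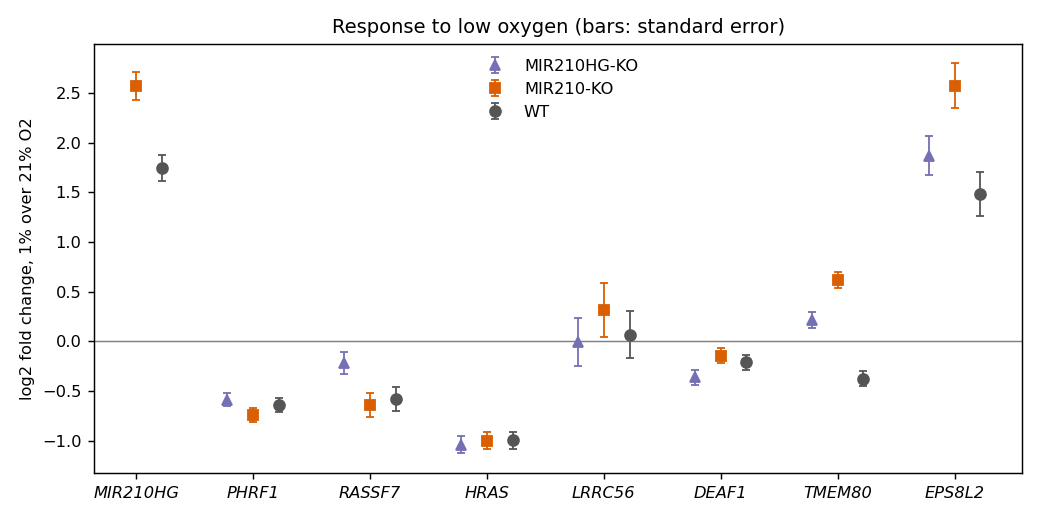
Log2 fold change of hypoxia (1% oxygen) over normoxia (21% oxygen) for MIR210HG and its 7 neighbours in each genotype, with standard errors from 4 libraries a group. TMEM80 lies above 0 in both knockouts and below 0 in WT, while HRAS lies between -1.04 and -0.997 in all 3, and MIR210HG has no value in MIR210HG-KO.

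Per kilobase of annotated exons, which makes levels comparable between genes, DEAF1 was the highest of the 9 in WT, at 30.9 ± 3.86 CPM per kb in hypoxia and 35.7 ± 0.80 in normoxia. HRAS came next at 14.0 ± 2.30 in hypoxia and 27.9 ± 1.41 in normoxia, followed by PHRF1 at 10.2 ± 0.48 and 15.9 ± 0.31. MIR210HG was at rank 4 in hypoxia WT, at 8.22 ± 0.74, where its libraries overlapped those of TMEM80 (6.75 ± 0.61), and at rank 6 in normoxia WT, at 2.46 ± 0.28, without overlap with its neighbours in the order. In hypoxia MIR210-KO it was at rank 3, with 8.93 ± 0.63, overlapping PHRF1 (7.61 ± 0.64). HRAS overtook DEAF1 in normoxia in both knockouts: it was at 34.8 ± 4.12 in MIR210HG-KO, where DEAF1 was at 22.1 ± 2.41 without overlap, and at 22.1 ± 1.65 in MIR210-KO, where DEAF1 was at 20.0 ± 0.75 and the libraries overlapped. In hypoxia MIR210HG-KO the order of these 2 could not be told, DEAF1 being at 17.2 ± 1.18 and HRAS at 16.9 ± 0.68. LRRC56 and EPS8L2 were the lowest of the coding genes in every group, between 0.20 and 1.57 CPM per kb.

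Likeness to MIR210HG was measured as Pearson's r of log2(CPM + 0.5), as a description over libraries that share their groups and their oxygen tables. Over the 16 libraries of MIR210-KO and WT the most like genes were PROCA1 (0.988), LMOD1 (0.982), PLPP7 (0.981), ZNF395 (0.978) and NEAT1 (0.976), of which NEAT1, the RNA scaffold of paraspeckles, also lies on chromosome 11. NEAT1 was at 226 ± 23.1 CPM in hypoxia MIR210-KO, against 227 ± 11.3 in hypoxia WT, and at 55.7 ± 4.08 in normoxia MIR210-KO, against 93.0 ± 1.43 in normoxia WT. Over all 24 libraries they were PHYH (0.962), SNX19 (0.959) and PLPP6 (0.959), of which SNX19 was at 0.155 ± 0.121 CPM in hypoxia MIR210HG-KO, 2.88 ± 0.527 in MIR210-KO and 2.36 ± 0.590 in WT. Among the neighbours, r over the 16 libraries was 0.89 for EPS8L2, 0.29 for TMEM80, 0.19 for LRRC56, -0.05 for DEAF1, -0.69 for RASSF7, -0.77 for PHRF1 and -0.83 for HRAS. Over all 24 libraries it was -0.06 for EPS8L2, 0.18 for TMEM80, -0.29 for LRRC56, 0.37 for DEAF1, -0.83 for RASSF7, -0.72 for PHRF1 and -0.60 for HRAS.

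Within 500 kb of MIR210HG, 45 other genes were tested. In MIR210-KO against WT, 5 were higher and 23 lower in hypoxia and 3 higher and 28 lower in normoxia, with medians of -0.35 and -0.68. Over the chromosome 61.2% were lower and 7.83% higher in hypoxia, and 63.2% and 5.41% in normoxia. The counts called lower are thus not above its own rate. In MIR210HG-KO against WT, 6 were higher and 7 lower in hypoxia and 4 higher and 10 lower in normoxia, with medians of -0.07 and -0.14, where the chromosome had 23.3% higher and 29.3% lower in hypoxia and 13.8% and 17.3% in normoxia. IFITM2, an interferon-induced antiviral membrane protein, rose in MIR210-KO while the median of the chromosome was below 0. It was at 7.13 ± 1.31 CPM in hypoxia MIR210-KO, against 2.75 ± 0.68 in WT (1.38 ± 0.17, adjusted p = 1.95e-08), and at 11.5 ± 1.52 CPM in normoxia MIR210-KO, against 4.88 ± 0.64 in WT (1.23 ± 0.16, adjusted p = 1.47e-07). NLRP6, a NOD-like receptor gene, was at 0.174 ± 0.119 CPM in normoxia MIR210HG-KO, 0.217 ± 0.150 in MIR210-KO and 0.531 ± 0.200 in WT. It was called lower in both knockouts on the scale of all genes. Relative to chromosome 11 it was called in MIR210HG-KO (-1.56, adjusted p = 0.00695) but not in MIR210-KO (-0.84, adjusted p = 0.097). The other genes that the naming rule took were the pseudogene AC136475.10 (-1.53 ± 0.27 in hypoxia and -1.61 ± 0.32 in normoxia, MIR210-KO), the non-coding AC136475.7 (1.62 ± 0.32 in MIR210HG-KO and 1.63 ± 0.32 in MIR210-KO, hypoxia), the antisense AC136475.2 (-1.41 ± 0.19 in hypoxia and -0.87 ± 0.21 in normoxia, MIR210HG-KO) and AC136475.1 (-0.95 ± 0.28, normoxia MIR210HG-KO), and CEND1 (1.21 ± 0.32, hypoxia MIR210HG-KO).

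Listed relatives of the neighbours moved in both directions. The lists were not limited to other chromosomes, and the part of the chromosome 11 shift in their MIR210-KO values was not tested. Of 14 listed RAS and RASSF relatives, 13 were tested. In MIR210HG-KO against WT, 1 was higher and 8 lower in hypoxia and 3 higher and 4 lower in normoxia, with medians of -0.22 and -0.21, beside 24.4% higher and 30.2% lower over all genes in hypoxia and 15.6% and 19.6% in normoxia. In MIR210-KO against WT, 3 were higher and 6 lower in hypoxia and 3 higher and 4 lower in normoxia, with medians of -0.11 and -0.07, beside medians of 0.02 and 0.01 over all genes and 28.2% higher and 27.7% lower in hypoxia and 22.6% and 21.6% in normoxia. RASSF5 (1.37 ± 0.075) and RASSF1 (-1.34 ± 0.065) moved most in hypoxia MIR210-KO, and RRAS (-0.79 ± 0.13) and RASSF1 (-0.78 ± 0.063) in hypoxia MIR210HG-KO. Of 5 listed relatives of EPS8L2 and DEAF1, 4 were tested: in hypoxia MIR210HG-KO 1 was higher (EPS8L1, 0.46 ± 0.13) and 1 lower (EPS8, -0.20 ± 0.057), and in hypoxia MIR210-KO 3 were higher and 1 lower, with EPS8L1 (0.72 ± 0.13) and GMEB2 (-0.71 ± 0.077) moving most.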

How the data were processed

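Messenger RNA was sequenced from 24 HEK293T libraries, 4 in each of 6 groups of genotype and oxygen level. The authors deposited whole-number counts per gene, 1 table per oxygen level. Per the submitters' processing notes, reads were handled with STAR 2.6.1d, featureCounts 1.5.0-p3, DESeq2 1.20.0, edgeR 3.24.3 and build GRCh38; filters, annotation release and strand setting are not given in the sources used here. From the counts, edgeR 4.0.16 (R 4.3.3) was run with TMM scaling and its default expression filter on all 24 libraries in a single fit with a term per group; quasi-likelihood F tests gave 12 comparisons, with Benjamini-Hochberg adjustment over 19952 genes and a threshold of 0.05. Standard errors were derived from the F statistic, and 95% intervals took 18 residual degrees of freedom. A further fit took scaling from 1035 genes of chromosome 11, the members left out. MIR210, below the filter, was compared by two-sided exact permutation tests over libraries. Total counts ran from 25556776 to 37858947 per library. Alternatives were DESeq2 1.42.0, RLE size factors, plain totals, no filter, a replicate block, only the groups compared, other chromosome 11 baselines, and leaving out each library or the 4 that stood apart. The fits were also tested on simulated data. Beside the members, the text names, of the called genes within 500 kb, the 3 with the largest absolute changes in each knockout against WT, and the genes most like MIR210HG. The members and the lists were chosen with earlier results of these data known.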

Additional observations from a re-analysis of the deposited data

Results flagged for a closer look

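In 4 of 50 sets of 4 libraries a single library lay far from the other 3, its gap being a larger share of the group's range than Dixon's 95% critical value, which chance gives in about 1 of 20 sets. LRRC56 accounted for 3 of them: MIR210HG-KO replicate 1 in hypoxia was lowest (0.8836 of the range), MIR210-KO replicate 2 in hypoxia highest (0.8584) and WT replicate 3 in normoxia highest (0.879). The other was the MIR210 precursor in normoxia MIR210-KO, where replicate 4 had the only count of its group (1.0 of the range).

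The response to oxygen differed between genotypes for 3 members by a test of the difference itself. MIR210HG responded more in MIR210-KO than in WT, by 0.8326 on the log2 scale, and EPS8L2 by 1.089. TMEM80 differed from WT by 0.5897 in MIR210HG-KO and by 0.9914 in MIR210-KO, and by -0.4017 between MIR210HG-KO and MIR210-KO.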

How the results depend on the processing

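Within each of the 2 scales, no member's called value changed sign under any alternative that was run, although which members were called did change. Between the scales signs could differ. In hypoxia MIR210HG-KO against MIR210-KO, TMEM80 was called higher on the scale of all genes (0.22) and lower relative to chromosome 11 (-0.23). Several medians of chromosome 11 that lie near 0 did change sign, among them those of the differences in response: in the oxygen comparisons they reached 0.15 in MIR210HG-KO, 0.16 in MIR210-KO and 0.09 in WT with plain totals, and in normoxia MIR210HG-KO against WT 0.01 with RLE size factors or DESeq2. In the counts below, which include MIR210HG, the members called when each library was left out in turn ranged, in hypoxia, from 6 to 7 for MIR210HG-KO against WT, 7 to 7 for MIR210-KO against WT and 5 to 7 between the knockouts, and in normoxia from 6 to 7, 6 to 7 and 7 to 8. For the oxygen responses they ranged from 4 to 6 in MIR210HG-KO, 6 to 7 in MIR210-KO and 6 to 7 in WT, and for the differences in response from 1 to 2, 3 to 3 and, between the knockouts, 0 to 1. Relative to chromosome 11 the same ranges were 7 to 7, 3 to 5 and 5 to 6 in hypoxia, 7 to 7, 2 to 3 and 2 to 8 in normoxia, 5 to 6, 6 to 6 and 6 to 7 for oxygen, and 1 to 2, 3 to 3 and 0 to 1 for the differences.

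For the difference in response of MIR210HG-KO, 2 members in place of 1 were called with plain library totals and without the 4 libraries that stood apart, and relative to chromosome 11 also with a short-arm baseline. Between the knockouts, 2 in place of 1 were called without the 4 libraries, and relative to chromosome 11 also with no filter. With a baseline of genes within 5 Mb, 2 were called there too, but they were PHRF1 and RASSF7, higher, while the lower call of TMEM80 was lost. The short-arm baseline and only the groups compared likewise gave RASSF7 higher in place of TMEM80 lower. Relative to chromosome 11, MIR210-KO against WT in normoxia gave 5 in place of 2 with only the groups compared (LRRC56, PHRF1 and HRAS added) or the 5 Mb baseline (PHRF1, RASSF7 and HRAS added), and MIR210HG-KO against MIR210-KO in normoxia gave 4 in place of 7 with plain totals or only the groups compared, and 2 with the 5 Mb baseline. The cause was not tested. Within an oxygen level, deviations of same-numbered libraries correlated weakly, at -0.10 to 0.20 in hypoxia, where 2 of 12 pairs were over 0.1, and -0.15 to 0.09 in normoxia. Pairing across oxygen levels was not examined. With a replicate block the members called in the knockout and WT comparisons were 7, 7 and 6 in hypoxia and 7, 7 and 7 in normoxia. No count moved by over 1.5 times. Plain totals shifted the median of all genes in the oxygen comparisons by 0.19 in MIR210HG-KO, 0.19 in MIR210-KO and 0.13 in WT, and with them the WT change of DEAF1 was -0.08 (adjusted p = 0.318). Low counts limit MIR210, LRRC56 and EPS8L2 most.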
